A study of Mus musculus with 3 samples.

Results

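The genes described here are 45 genes of mitosis and the mitotic spindle, chosen by name: CDK1 with its cyclins, the mitotic kinases, the chromosomal passenger complex, the spindle checkpoint, the proteins of anaphase onset, the kinetochore, the spindle motors, cytokinesis and chromosome structure. All 45 had a probe that passed the filter on dim signals, out of 22222 genes tested, and each was well above background in all 6 libraries. The values come from cells that the sample titles name multipotent progenitors (MPPs), of mice lacking the transcription factor Mef2c and of control mice. MPPs are the early blood progenitors that feed both the lymphoid and the myeloid lineages.

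Mutant mice were Mx1-Cre Mef2c f/f, and controls were Mef2c f/f without Cre. Both received poly(I:C) on 4 consecutive days at a dose of 250 µg (the labels have lost the micro sign), and bone marrow was taken 2 days after the last dose. Mx1-Cre is driven by an interferon-responsive promoter that poly(I:C) switches on, in blood cells and in other tissues, so the interferon stimulus was common to both groups while the recombinase was not. An effect of Cre therefore cannot be told apart from one of the lost gene. For each library 15000 cells that were negative for B220, Ter119, Gr-1, Mac1 and CD3 and positive for c-kit and Sca-1 were sorted. With no further sort marker named here, stem cells as well as MPPs could be present, and their shares were not measured. The mRNA of the sorted cells was amplified by a global PCR method, and 250 ng of cDNA was labelled. Each of the 3 arrays carried 1 mutant library in Cy3 and 1 control library in Cy5. With no dye swap in the labels, dye and genotype cannot be told apart. The labels used here give no strain, no age and no number of animals per library, so p-values measure the spread between these 3 pairs only.

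Entry into mitosis is driven by CDK1 bound to cyclins A and B, with the Aurora and Polo-like kinases. Chromosomes are condensed, attached to spindle microtubules at the kinetochore and held back by the spindle assembly checkpoint until CDC20 activates the anaphase-promoting complex, which frees separase to cut cohesin. Transcripts of these genes accumulate in G2 and M phase, so in a population they track dividing cells, and stem and progenitor cells of the marrow range from quiescent to rapidly cycling. In bulk libraries a change in the share of cells in mitosis and a change in RNA per cell cannot be told apart.

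Values below are log2 ratios of mutant over control on arrays 1, 2 and 3, with means ± SD over the 3 arrays, or log2 signals of single libraries after scaling between arrays. The direction follows the labels, but that of array 2 is not settled. Between the scanner's Cy5 over Cy3 ratios and the log2 ratios in the authors' deposited table, r was -0.95, 0.94 and -0.94 for arrays 1, 2 and 3, which sets array 2 apart from the other pair. Means with the sign of array 2 turned are therefore given for each role and gene list and for the genes described.

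Mef2c itself was read by 2 probes whose position relative to the deleted part is not given, so they do not check the deletion. The brighter probe had ratios of 0.08, 0.10 and -0.96, and the dimmer one, well above background in 3 of 6 libraries, had 1.07, 0.22 and 0.28. All 10 markers of the stem and progenitor gate, Kit, Ly6a and Cd34 among them, passed the filter. Their median ratio was -0.28 with 7 of 10 below 0 (-0.03 with array 2 turned). Mutant libraries all lay below the controls for Flt3 and Hlf and above them for Ly6a, with mean ratios of -1.15, -1.21 and 0.82 (-0.32, -0.07 and 0.48 turned). Among markers of other cells, 8 of 10 early myeloid genes were measured and all 8 had mean ratios above 0, with a median of 0.53. Their summed log2 signal spanned 18.19 to 18.45 in the mutant libraries and 17.63 to 18.03 in the controls, without overlap. With array 2 turned that median was -0.05. Summed over all genes tested, log2 signal spanned 26.46 to 26.48 in the mutant libraries and 26.51 to 26.59 in the controls, also without overlap. As labelled, summed signals of 3 further lists were likewise lower in every mutant library than in every control. These were lineage antigens (13.39 to 13.82 against 13.86 to 14.25), T cell genes (12.99 to 13.07 against 13.23 to 13.48) and immediate early genes (16.19 to 17.11 against 17.28 to 19.34). The part of these cells and genes in the ratios of the mitosis genes was not tested. Control library 1 stood apart: its summed signal of the 10 late neutrophil genes was 16.6, against 13.8 to 14.3 in the 5 other libraries, and that of 12 immediate early genes was 19.3, against 16.2 to 17.6. Median ratios were -1.30 for the late neutrophil, -1.92 for the immediate early, 0.07 for the erythroid, -0.22 for the lineage antigen, -0.14 for the B cell, -0.26 for the T cell and 0.23 for the macrophage list. With array 2 turned they were, in the same order, -0.98, -1.44, 0.04, -0.26, -0.0056, 0.11 and 0.28. That of the T cell list thus changed sign.

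Most of the mitosis genes had somewhat more signal in the Mef2c-deficient libraries. Mean ratios were above 0 for 35 of 45 genes, or 77.8%, where 45.4% of all genes tested lay above 0. Their median was 0.22, against -0.04 over all genes, and the range ran from -0.30 for Kif4 to 0.90 for Aurkb. No gene on the array passed limma's test after Benjamini-Hochberg adjustment: 0 of 22222 had an adjusted p under 0.05, the smallest being 0.461. At an unadjusted p under 0.05, limma counted 1070 genes higher and 1182 lower. Of the mitosis genes 4, or 8.89%, were on the higher side of that looser threshold, where 4.82% of all genes were. These were Aurkb, Aurka, Cdc20 and Bub1. On the lower side were 0 of 45, where 5.32% of all genes were.

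Direction over the arrays gave a similar count. Ratios were above 0 on all 3 arrays for 16 mitosis genes (35.6%; 15.2% of all genes) and below 0 on all 3 for 2 genes, Cenpa and Nusap1 (4.44%; 20.3% of all genes). The 3 mutant signals all exceeded the 3 control signals for 6 genes, Aurkb, Aurka, Cdc20, Cks2, Espl1 and Racgap1 (13.3%; 7.21% of all genes). For 0 genes did they all lie below (11.8% of all genes), and the libraries of the other 39 genes overlapped. As labelled, the summed log2 signal of the 45 genes spanned 18.38 to 18.53 in the mutant libraries and 18.23 to 18.31 in the controls, without overlap. Summed over all genes, the mutant libraries lay below the controls. On array 2 the sums of the 45 genes were 18.38 and 18.31, so turning that array makes the groups overlap. With array 2 turned, 36 genes had means above 0 (48.3% of all genes) with a median of 0.13, and 0 passed the unadjusted threshold on the higher side, where 1.51% of all genes did, or on the lower side, where 1.39% did. Leaving out array 1, which holds the control library that stood apart, gave a median of 0.14 and 3 genes past the threshold on the higher side, Aurkb, Cdc20 and Aurka (2.85% of all genes). Leaving out array 2 gave 0.29 and Aurkb, Pttg1 and Racgap1 (4.12% of all genes), so Aurkb was the 1 gene past it in each of the 3 leave-one-out fits. Leaving out array 3 gave 0.28 and 7 genes: Bub1, Aurkb, Cdk1, Mad2l1, Aurka, Anln and Cdc20, where 6.09% of all genes passed.

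**Figure D1:**
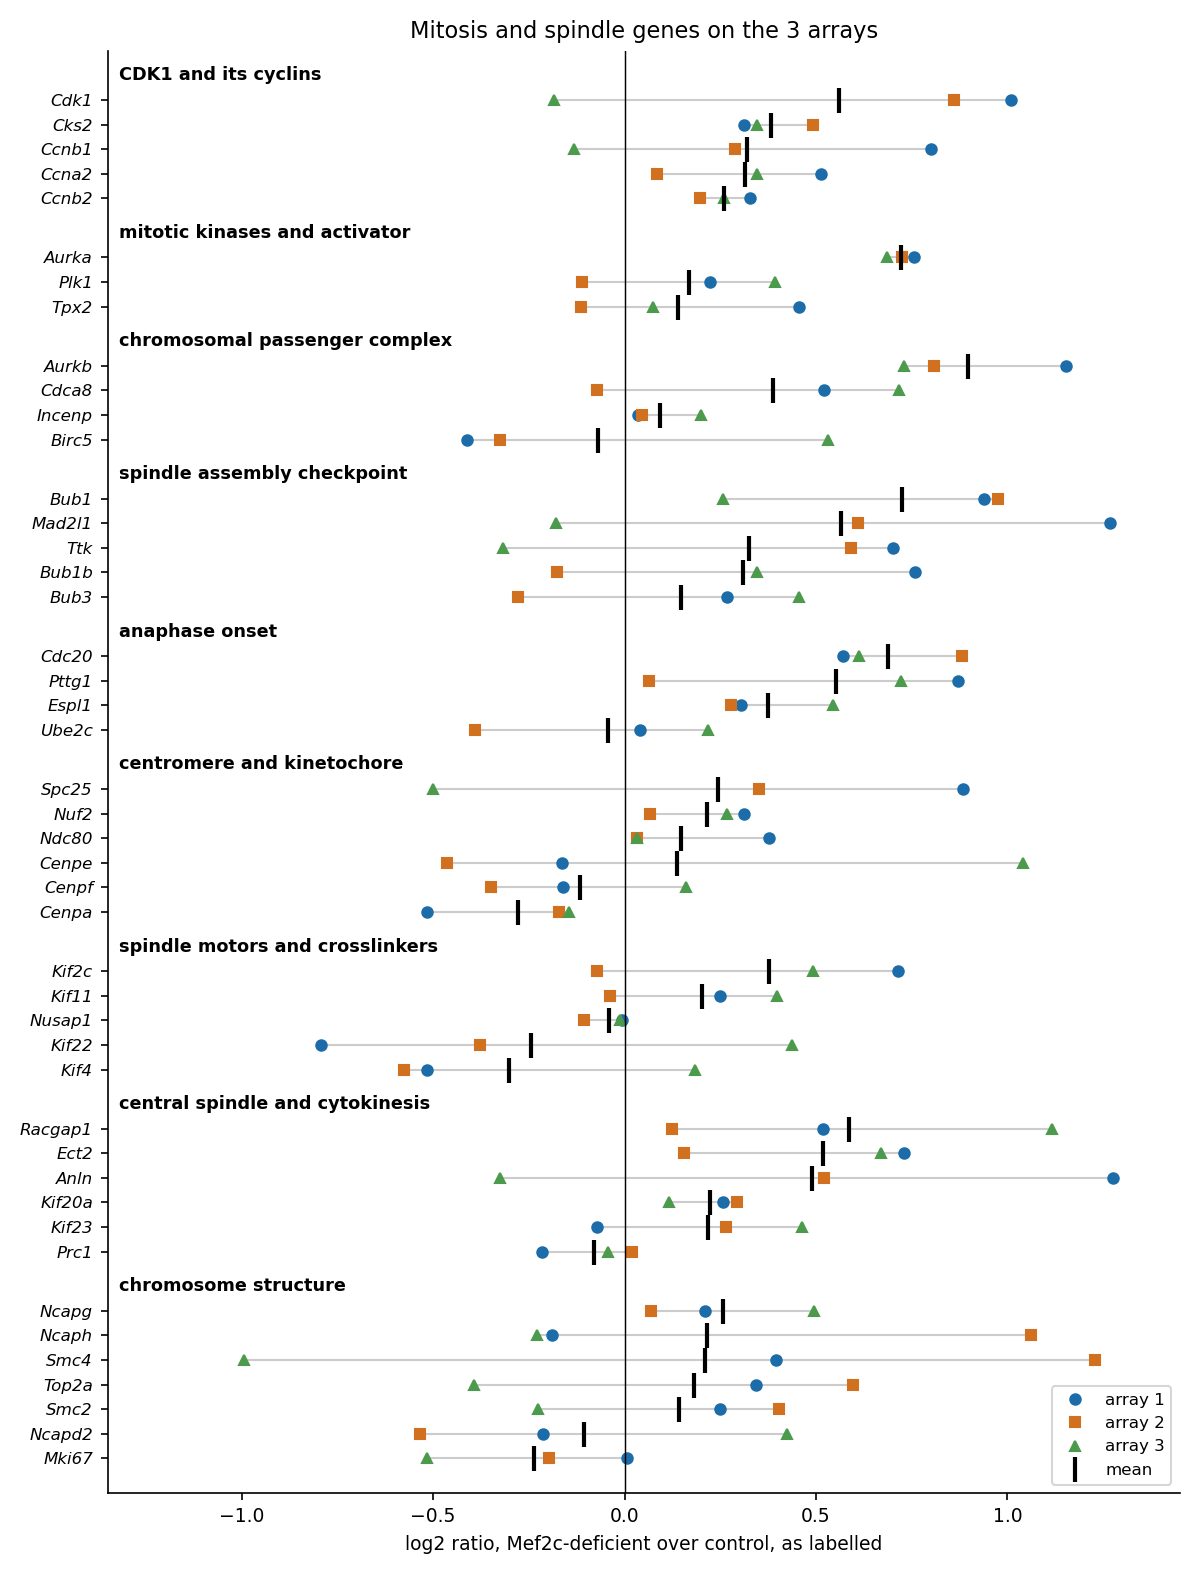
Log2 ratio of Mef2c-deficient over control signal (x axis) for the 45 mitosis and spindle genes by role (y axis), with a point for each array, a bar for the mean and a grey line from the lowest to the highest array. Aurkb, Aurka, Cdc20 and Bub1 lie right of 0 on all 3 arrays, while Cdk1, Mad2l1, Anln and Smc4 lie right of 0 on arrays 1 and 2 and left of it on array 3.

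Promoters of mitosis genes are known for paired elements, a CHR (cell cycle genes homology region), bound by the DREAM and MuvB complexes, and CCAAT boxes, bound by NF-Y. The letters TTTGAA for the CHR and CCAAT for the box were searched on both strands (reverse complements TTCAAA and ATTGG) in RefSeq promoters of GRCm38.p6, from 250 bases before to 50 bases after each start. Of the 45 genes, 39 were matched. TTTGAA was present in 29 of them (74.4%), against 20.2% of the 27025 genes in the table, and CCAAT in 30 (76.9%) against 41.1%. Both were present in 26 (66.7%) against 7.97%. The motifs can share a base, as in Cdca8 at +19. The 120 bases before the start are shown for the promoters of the genes with the smallest p that were matched, Cdc20 and Aurka, and of the gene with the lowest ratio, Kif4. Those of Cdk1, the kinase that drives mitosis, and Mki67, the proliferation marker, were added after the matches were seen, because each holds TTTGAA at 2 places. Ect2, Smc2, Kif22, Anln, Ccnb2 and Top2a also hold it at 2 places in the window searched. Capitals mark TTTGAA and, on either strand, the CCAAT box. The positions are chr4:118437344-118437463 on the minus strand for Cdc20, chr2:172370571-172370690 on the minus strand for Aurka, chrX:100625945-100626064 on the plus strand for Kif4, chr10:69352913-69353032 on the minus strand for Cdk1 and chr7:135716380-135716499 on the minus strand for Mki67.
Cdc20: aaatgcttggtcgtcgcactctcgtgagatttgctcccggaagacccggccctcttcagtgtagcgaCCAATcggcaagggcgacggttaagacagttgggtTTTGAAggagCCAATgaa
Aurka: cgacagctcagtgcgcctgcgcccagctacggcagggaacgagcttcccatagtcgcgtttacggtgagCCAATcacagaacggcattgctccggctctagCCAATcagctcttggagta
Kif4: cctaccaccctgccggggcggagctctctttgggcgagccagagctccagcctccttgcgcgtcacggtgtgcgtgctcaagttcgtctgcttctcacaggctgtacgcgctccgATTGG
Cdk1: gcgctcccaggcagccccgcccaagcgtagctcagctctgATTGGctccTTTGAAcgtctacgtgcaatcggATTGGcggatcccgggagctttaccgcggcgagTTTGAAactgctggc
Mki67: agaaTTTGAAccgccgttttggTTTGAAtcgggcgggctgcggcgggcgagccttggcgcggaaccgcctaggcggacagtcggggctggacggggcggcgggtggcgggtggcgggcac
In Cdc20 TTTGAA lay from -18 to -13, between a pair of CCAAT boxes, and in Cdk1 it lay from -71 to -66 and from -15 to -10. In Aurka and Kif4 it lay after the start, from +33 to +38 and from +20 to +25, beyond the bases shown. A match is a description of these letters and not a shown binding site.

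Ratios of genes with and without TTTGAA overlapped. The 29 genes with TTTGAA had a median ratio of 0.22, from -0.30 to 0.72, with 21 above 0. The 10 without it had a median of 0.27, from -0.07 to 0.72, with 8 above 0. Bub1, past the unadjusted threshold, lacked TTTGAA in its window and held CCAAT at 2 places. Among the other gene lists TTTGAA was found in 42.6% of 94 other mitosis genes, 15.4% of 39 DNA replication genes and 28.6% of 14 G1 genes.

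Cdk1 and its cyclins all had mean ratios above 0, with a median of 0.32, and 0 of 5 passed the unadjusted threshold. At the brightest probes Cdk1, the kinase of mitotic entry, was the highest of them. Its signals were 12.67, 13.00 and 12.11 in the mutant libraries and 11.67, 12.14 and 12.29 in the controls, and its ratios were 1.01, 0.86 and -0.18 (0.56 ± 0.65). The groups overlapped, array 3 ran opposite to the others, and with array 2 turned the mean was -0.01. Ccnb2, which encodes cyclin B2, was the lowest, with ratios of 0.33, 0.20 and 0.26 (0.26 ± 0.07). Those ratios were close together although its library signals were not, from 11.76 to 13.18. Cks2, a small subunit that binds CDK1, had ratios of 0.31, 0.49 and 0.35 (0.38 ± 0.10), and its mutant libraries (13.07 to 13.23) all exceeded its controls (12.74 to 12.77). The other Cks2 probe that passed had ratios of 0.85, 0.80 and 0.84 (0.83 ± 0.03). There too the mutant libraries (11.59 to 12.03) exceeded the controls (10.79 to 11.19). Ccna2 and Ccnb1, which encode cyclins A2 and B1, averaged 0.31 and 0.32, Ccnb1 with array 3 at -0.13. The other Ccnb1 probes averaged 0.70 ± 0.31 and 0.56 ± 0.55. Turning array 2 gave a role median of 0.13, and the means of Ccnb2, Cks2, Ccna2 and Ccnb1 were 0.13, 0.06, 0.26 and 0.13.

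Among the mitotic kinases Aurka had the most even ratios of the 4 genes past the unadjusted threshold. It encodes Aurora A, which matures centrosomes and builds the spindle poles. Its signals were 11.54, 11.24 and 11.51 in the mutant libraries against 10.78, 10.52 and 10.82 in the controls, so every mutant library exceeded every control. The ratios were 0.76, 0.72 and 0.69 (0.72 ± 0.03, a 1.65-fold higher signal), and limma gave an unadjusted p of 0.012 and an adjusted p of 0.463. With array 2 turned the mean was 0.24. Tpx2, which activates Aurora A on microtubules, averaged 0.14 ± 0.29 with ratios of 0.46, -0.11 and 0.08. Plk1, the Polo-like kinase, averaged 0.17 ± 0.26 with array 2 at -0.11. Turned, their means were 0.21 and 0.24, and the role's median was 0.24 against 0.17 as labelled. No difference between these genes was tested.

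The chromosomal passenger complex, which corrects wrong attachments of chromosomes to the spindle, held the highest mean of all 45 genes at their brightest probes. That gene, Aurkb, encodes its kinase, Aurora B. Its signals were 10.90, 10.05 and 10.61 in the mutant libraries and 9.74, 9.24 and 9.88 in the controls, with every mutant above every control. The ratios were 1.15, 0.81 and 0.73 (0.90 ± 0.22, a 1.86-fold higher signal; limma, unadjusted p = 0.006, adjusted p = 0.461), and the mean was 0.36 with array 2 turned. The kinase's partners did not show this pattern. Birc5, which encodes survivin, was the lowest at -0.41, -0.32 and 0.53 (-0.07 ± 0.52), and 0.15 with array 2 turned. Incenp, the scaffold, was near 0 at 0.04, 0.04 and 0.20. Cdca8, which encodes borealin, averaged 0.39 ± 0.41, with array 2 at -0.07. After turning array 2, Incenp and Cdca8 averaged 0.06 and 0.44 and the role's median was 0.25, against 0.24 as labelled.

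Genes of the spindle assembly checkpoint all had means above 0, with a median of 0.33. Bub1, a checkpoint kinase at the kinetochore, was the highest and the 1 of 5 past the unadjusted threshold. Its signals were 11.34, 11.000 and 11.35 in the mutant libraries and 10.40, 10.02 and 11.09 in the controls. The groups overlapped, since control library 3 exceeded mutant library 2. The ratios were 0.94, 0.98 and 0.26 (0.72 ± 0.40, 1.65-fold; limma, unadjusted p = 0.025, adjusted p = 0.468), and the mean was 0.07 with array 2 turned. Mad2l1, which encodes the inhibitor MAD2, had a wider spread at 1.27, 0.61 and -0.18 (0.57 ± 0.73). Ttk, the kinase that starts checkpoint signalling, averaged 0.33 ± 0.56, with array 3 at -0.32. Bub1b averaged 0.31 ± 0.47, with array 2 at -0.18. Bub3, the partner of both BUB proteins, was the lowest at 0.27, -0.28 and 0.46 (0.15 ± 0.38), and its mean was -0.01 without array 3. The role's median was 0.16 with array 2 turned, and Mad2l1, Ttk, Bub1b and Bub3 averaged 0.16, -0.07, 0.43 and 0.33, so that Ttk changed sign.

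Anaphase onset had a median of 0.46 (0.20 with array 2 turned), and 3 of its 4 genes were above 0 on all 3 arrays. Cdc20, the activator of the anaphase-promoting complex, had signals of 11.73, 11.84 and 12.05 in the mutant libraries and 11.16, 10.96 and 11.44 in the controls, without overlap. Its ratios were 0.57, 0.88 and 0.61 (0.69 ± 0.17, 1.61-fold; limma, unadjusted p = 0.017, adjusted p = 0.463), and the mean was 0.10 with array 2 turned. Espl1, which encodes separase, also had mutant libraries (10.77 to 11.05) above its controls (10.49 to 10.51), with a mean of 0.38 ± 0.15 (0.19 turned). Pttg1, which encodes securin, the inhibitor of separase, had ratios of 0.87, 0.06 and 0.72 (0.55 ± 0.43; 0.51 turned) and overlapping groups. Ube2c, the ubiquitin-conjugating enzyme of the complex, was the exception at 0.04, -0.39 and 0.22 (-0.04 ± 0.31), and 0.22 with array 2 turned.

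**Figure D2:**
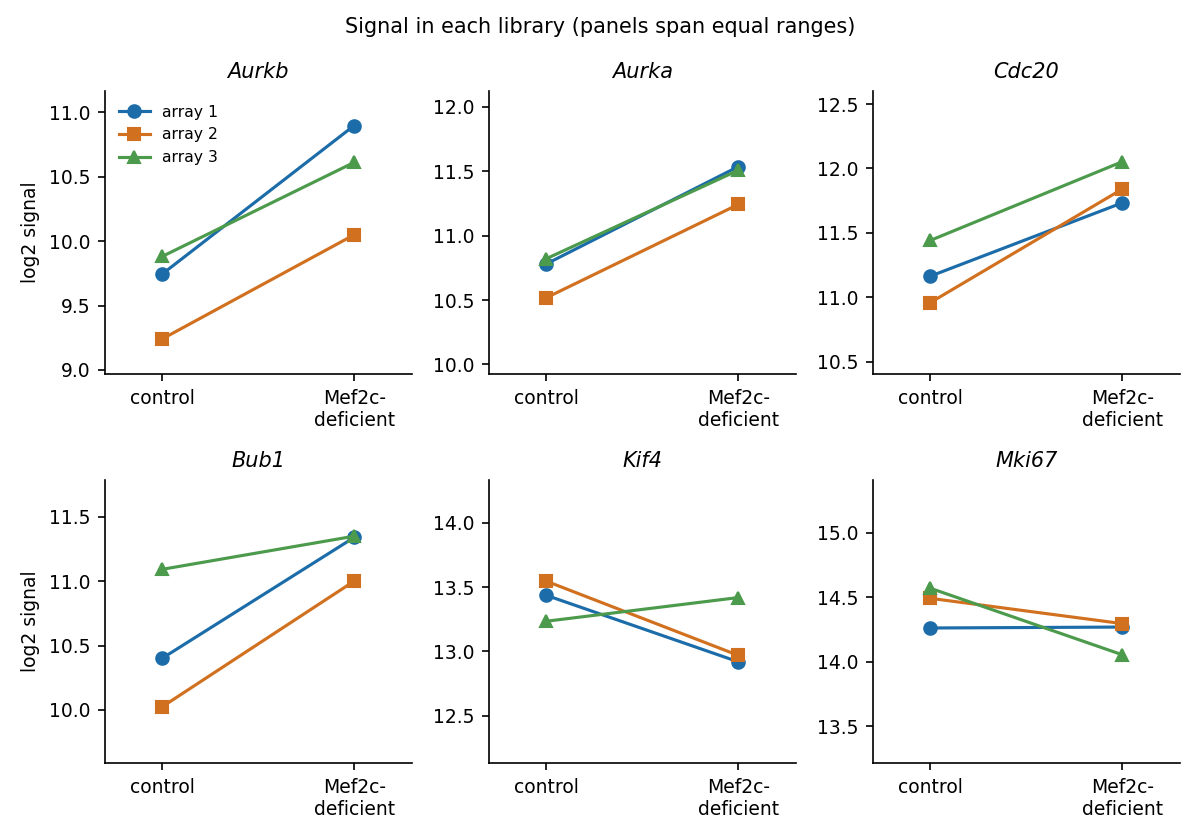
Log2 signal (y axis, equal spans) in the control and Mef2c-deficient library of each array (x axis) for 6 genes, with a line joining the libraries that shared an array. Lines climb on all 3 arrays for Aurkb, Aurka, Cdc20 and Bub1, drop on arrays 1 and 2 for Kif4, and for Mki67 are flat on array 1 and drop on arrays 2 and 3.

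Kinetochore genes were nearer to all genes, with a median of 0.14 and 0 of 6 past the unadjusted threshold. Spc25 and its partners Ndc80 and Nuf2 build the complex that grips microtubules. Spc25 was the highest at 0.88, 0.35 and -0.50 (0.24 ± 0.70), a spread larger than its mean, and its mean was -0.07 without array 1. Nuf2 and Ndc80 were above 0 on all 3 arrays, with means of 0.22 ± 0.13 and 0.15 ± 0.20. Cenpa, the histone H3 variant that marks centromeres, was the lowest at -0.52, -0.17 and -0.15 (-0.28 ± 0.21; -0.16 with array 2 turned). Its libraries overlapped, from 11.94 to 12.42 in mutants and 12.33 to 12.57 in controls. The other Cenpa probe that passed had ratios of -0.79, 0.10 and 0.30 (-0.13 ± 0.58). Cenpe, a kinetochore motor, had ratios of -0.16, -0.46 and 1.04 (0.14 ± 0.80), and Cenpf averaged -0.12 ± 0.26. Turning array 2 gave a role median of 0.12, and Spc25, Nuf2, Ndc80, Cenpe and Cenpf averaged 0.01, 0.17, 0.13, 0.45 and 0.12.

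Spindle motors and crosslinkers were the 1 role with a median below 0, at -0.04, and 3 of its 5 genes had negative means. Kif4, a chromosome-bound kinesin, was the lowest of all 45 genes. Its signals were 12.92, 12.97 and 13.42 in the mutant libraries and 13.44, 13.55 and 13.23 in the controls, overlapping through array 3. The ratios were -0.52, -0.58 and 0.18 (-0.30 ± 0.42), and the mean was 0.08 with array 2 turned. Kif22, a kinesin that pushes chromosome arms, followed the same pattern with -0.79, -0.38 and 0.44. Kif2c, which takes microtubule ends apart, was the highest at 0.71, -0.07 and 0.49 (0.38 ± 0.40). Kif11, the motor that separates the poles, averaged 0.20 ± 0.22, and Nusap1, a microtubule bundler, -0.04 ± 0.06. With array 2 turned, all 5 means were above 0, from 0.0074 for Kif22 to 0.43 for Kif2c, and their median was 0.08.

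Genes of the central spindle and cytokinesis had a median of 0.36, with 5 of 6 above 0 and 0 of 6 past the unadjusted threshold. Racgap1 and Kif23 form centralspindlin, and Ect2 is the exchange factor that it recruits to start the contractile ring. Racgap1 was the highest, with mutant libraries at 13.50, 13.28 and 13.78 above controls at 12.98, 13.15 and 12.66. Its ratios were 0.52, 0.12 and 1.12 (0.59 ± 0.50; 0.50 with array 2 turned). Ect2 averaged 0.52 ± 0.31 with array 2 at 0.16, and Kif23 averaged 0.22 ± 0.27. Anln, which encodes the ring protein anillin, had the widest spread of the role at the brightest probes. Its ratios were 1.28, 0.52 and -0.32 (0.49 ± 0.80). Kif20a, a central spindle kinesin, averaged 0.22 ± 0.09. The other Ect2 probe that passed had ratios of -0.15, 1.52 and -1.29 (0.03 ± 1.41). The other probes of Kif23, Anln, Racgap1 and Kif20a averaged -0.13 ± 0.23, -0.20 ± 1.08, 0.41 ± 0.92 and 0.46 ± 0.07. Prc1, the crosslinker of the midzone, was the lowest at -0.22, 0.02 and -0.04 (-0.08 ± 0.12). The role's median was 0.09 with array 2 turned, and Ect2, Kif23, Anln, Kif20a and Prc1 averaged 0.41, 0.04, 0.14, 0.03 and -0.09.

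Genes of chromosome structure had a median of 0.18 and 0 of 7 past the unadjusted threshold. On array 3 their median was -0.23 with 2 of 7 above 0, against 0.21 and 0.40 on arrays 1 and 2. The condensin subunits differed among themselves. At the brightest probes Ncapg was the highest, at 0.21, 0.07 and 0.50 (0.26 ± 0.22). At its brightest probe Smc4 went from 1.23 on array 2 to -0.99 on array 3 (0.21 ± 1.12). That was the widest spread of the 45 genes at their brightest probes. The other Smc4 probe that passed had ratios of -0.15, 0.06 and 0.11 (0.005 ± 0.14). Ncaph stood at -0.19, 1.06 and -0.23, Smc2 averaged 0.14 ± 0.33 and Ncapd2 -0.11 ± 0.49. Top2a, the topoisomerase that untangles sister chromatids, averaged 0.18 ± 0.51, with array 3 at -0.39. Turning array 2 made the role's median negative, at -0.13 with 2 of 7 above 0. Smc4, Ncaph, Top2a and Smc2 then averaged -0.61, -0.49, -0.22 and -0.13, against 0.21 for Ncapg and 0.25 for Ncapd2.

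Mki67, which encodes the surface protein of mitotic chromosomes used as the common marker of proliferation, was the lowest of its role. Its signals were 14.27, 14.30 and 14.05 in the mutant libraries and 14.26, 14.49 and 14.57 in the controls, and the groups overlapped. The ratios were 0.01, -0.20 and -0.52 (-0.24 ± 0.26; limma, unadjusted p = 0.326), and the mean was -0.10 with array 2 turned. The other Mki67 probe that passed had ratios of -0.11, -0.44 and 0.21 (-0.11 ± 0.33). On array 3 it was above 0, where the brighter probe was below 0. The proliferation marker thus lay on the other side of 0 from 35 of the mitosis genes, though within its spread between arrays.

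The arrays did not rank the mitosis genes alike. Over the 45 genes the ratios of arrays 1 and 2 correlated at r = 0.58 (Spearman's rho 0.61), those of arrays 1 and 3 at -0.05 (0.01) and those of arrays 2 and 3 at -0.35 (-0.24). Over all genes the values of r were 0.31, 0.13 and 0.04. Turning array 2 reverses the sign of r for its pairs with arrays 1 and 3. The counts of sign patterns below also follow the labels. These describe genes of the same 6 libraries, which are not independent points. In 9 genes, Cdk1, Ccnb1, Mad2l1, Ttk, Spc25, Anln, Smc2, Smc4 and Top2a, the ratio was above 0 on arrays 1 and 2 and below 0 on array 3. In 6 genes, Birc5, Cenpe, Cenpf, Kif4, Kif22 and Ncapd2, it ran the other way. In 8 genes, among them Plk1, Tpx2, Kif11 and Bub1b, array 2 alone was below 0. As labelled, the median of the 45 genes was nevertheless above that of all genes on each array. The values were 0.31 against -0.07 on array 1, 0.07 against -0.05 on array 2 and 0.26 against 0.00 on array 3. With array 2 turned, the order of these medians on that array is reversed.

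**Figure D3:**
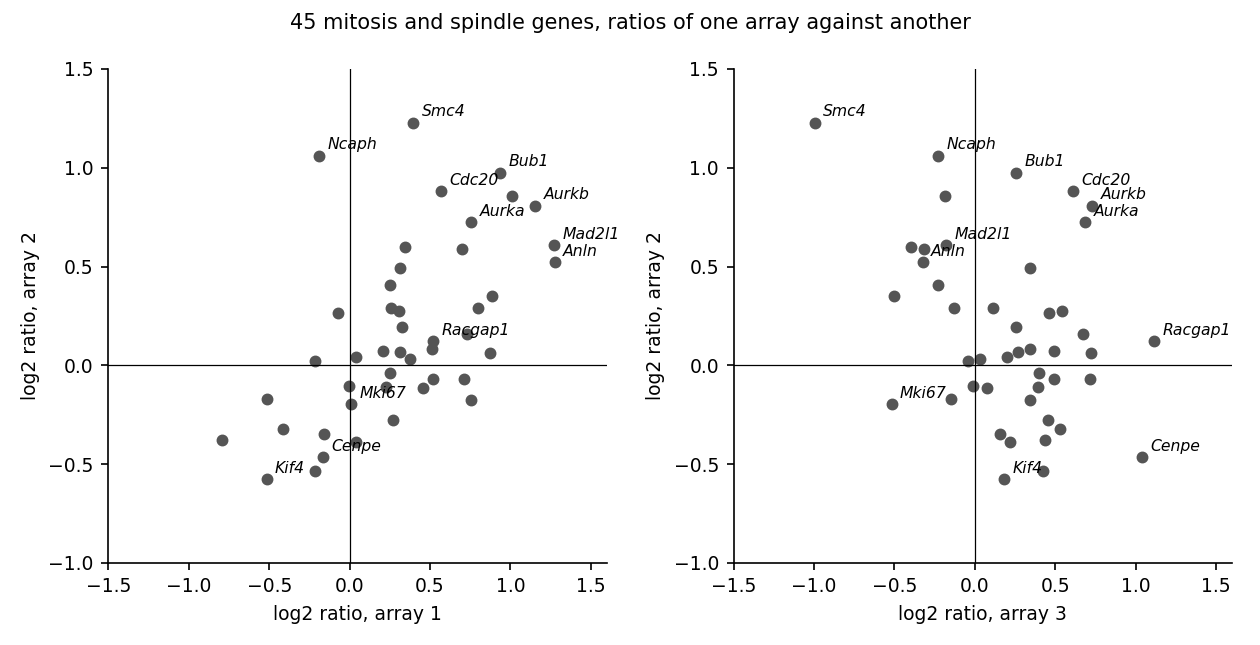
Log2 ratios of the 45 genes on array 2 (y axes) against array 1 (left) and array 3 (right), with a point for each gene and names for 12 of them. With array 2 as labelled, the cloud slopes upward on the left (r = 0.58) and downward on the right (r = -0.35). On the right Smc4 and Cenpe lie far out in opposite corners while Aurkb, Aurka and Cdc20 stay at the upper right.

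Ratios also differed with the position of the probe within a gene. For 21 of the 45 genes, probes at least 300 and at most 200000 bases apart on the genome could be compared, the one nearer the 5′ end against the one nearer the 3′ end. Their median differences in log2 ratio, 5′ minus 3′, were 0.20, 0.38 and -0.73 for arrays 1 to 3. Over 6278 genes with such a pair it was -0.06, 0.22 and -0.30, so array 3 was the lowest there too. On array 3 the 5′ probe had the lower ratio in 15 of the 21 genes (71.4%), near the 67.1% of the 6278 genes. Top2a, for example, had ratios of 0.92, 1.31 and -1.62 at its 5′ probe and 0.34, 0.60 and -0.39 at its 3′ probe. Racgap1 had 1.25, 0.56 and -0.58 at its 5′ probe against 0.52, 0.12 and 1.12 at the 3′ one. The part of RNA length or amplification in these ratios was not tested.

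**Figure D4:**
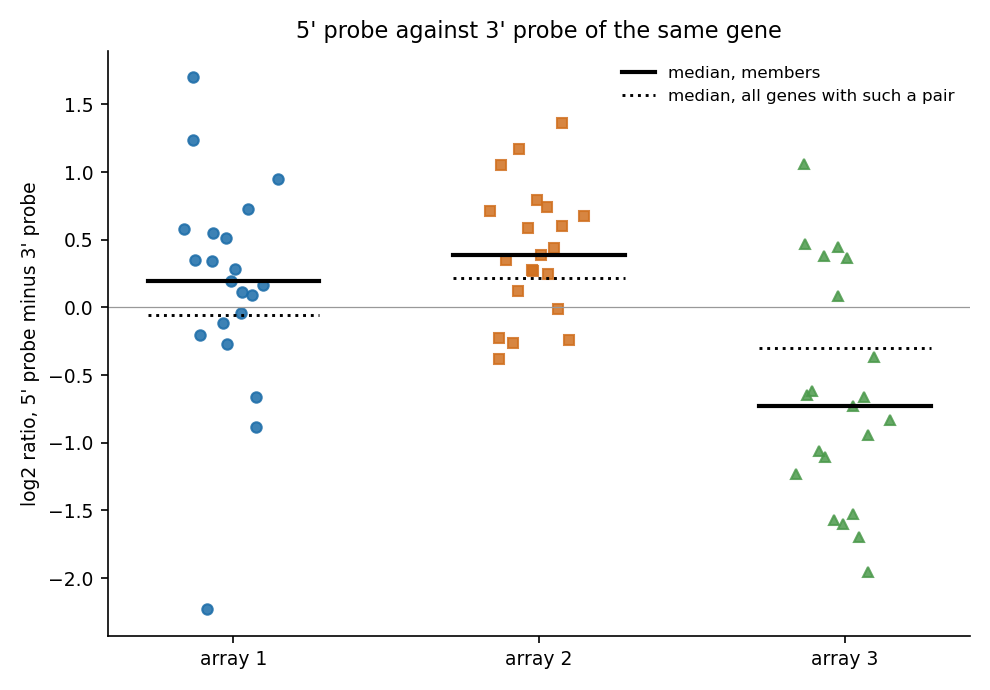
Log2 ratio at the 5′ probe minus that at the 3′ probe of the same gene (y axis) on each array (x axis) for 21 mitosis and spindle genes, with solid bars for their medians and dotted bars for the medians of 6278 genes. The points centre on 0.20 and 0.38 on arrays 1 and 2 and on -0.73 on array 3.

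Of the 45 genes, 24 had more than 1 probe that passed, and in 17 of these (70.8%; 63.5% of 7249 genes in all) the other probes gave a mean of the same sign. The exceptions were Anln, Cdk1, Cenpe, Cenpf, Kif11, Kif23 and Ncapd2. In Cdk1 the 3′ probe, at a signal of 7.37 to 9.48, had ratios of -0.69, 1.24 and -0.66, against 1.01, 0.86 and -0.18 at the brighter probe. Aurkb, Aurka, Cdc20 and Bub1 each had a single probe, so their ratios could not be compared within the gene. Kif4 had a pair that ran alike, at -0.30 ± 0.42 and -0.26 ± 0.32. With the probe nearest the 3′ end of every gene, 7 mitosis genes passed the unadjusted threshold on the higher side (Aurkb, Cks2, Aurka, Cdc20, Ccnb1, Bub3 and Bub1), where 5.65% of all genes did, and the median was 0.22.

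A wider list of 118 other mitosis genes, of which 116 were tested, had a median of 0.14 with 79 genes above 0 (68.1%; 45.4% of all genes). At the unadjusted threshold 11 were higher (9.48%; 4.82% of all genes) and 1 was lower (5.32% of all genes). Haspin, the kinase that marks histone H3 for the passenger complex, was the highest at 2.13, 1.42 and 0.78 (1.44 ± 0.67). Ska2, of the complex that couples kinetochores to microtubules, averaged 0.91 ± 0.11, Mybl2, a transcription factor of G2 and M genes, 0.81 ± 0.08, and Cenpo 0.96 ± 0.65. Stag2, a cohesin subunit, was the 1 lower gene, at -2.01, -0.98 and -0.89 (-1.29 ± 0.63). Wapl and Nipbl, which release and load cohesin, averaged -0.52 ± 0.50 and -0.38 ± 0.17, and Psrc1 -0.32 ± 0.01, none past the threshold. Nipbl averaged 0.22 when all its probes were averaged, and Cenpo -0.085 at its probe nearest the 3′ end. Stag2, Wapl and Nipbl act on cohesin in interphase as well. The list's median was 0.06 with array 2 turned, Haspin, Ska2, Mybl2 and Cenpo averaged 0.50, 0.37, 0.23 and 0.14, and Stag2, Wapl, Nipbl and Psrc1 -0.64, -0.49, 0.0020 and -0.11. Without array 1 the counts were 5 higher and 2 lower, where 2.85% of all genes were higher and 664 of 22222 lower. Without array 2 they were 7 and 1, where 4.12% of all genes were higher and 893 of 22222 lower.

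DNA replication genes, which act in S phase before mitosis, had a higher median than the mitosis genes. It was 0.36 over 48 genes, and 38 were above 0 (79.2%; 45.4% of all genes). At the unadjusted threshold 11 were higher (22.9%; 4.82% of all genes) and 0 lower (5.32% of all genes). The mutant libraries exceeded all controls in 24 of the 48 (7.21% of all genes) and lay below all controls in 2 (11.8%). As labelled, their summed log2 signal spanned 18.87 to 19.05 in the mutant libraries and 18.62 to 18.82 in the controls. Turning array 2 makes these groups overlap, and the sums of the other mitosis and G1 lists overlapped as labelled. Orc1, of the complex that marks origins, averaged 1.34 ± 0.56, and Mcm5, a subunit of the replicative helicase, 0.87 ± 0.30. Orc2, of the same complex as Orc1, was below 0 on all 3 arrays without passing, at -0.35 ± 0.27. The count of 11 fell to 3, 4 and 7 without arrays 1, 2 and 3, where 2.85%, 4.12% and 6.09% of all genes were higher. It fell to 0 with array 2 turned (1.51% of all genes), when the median was 0.14 and Orc1, Mcm5 and Orc2 averaged 0.83, 0.40 and 0.08. G1 cyclins and CDK inhibitors, 18 of 19 measured, were centred near all genes at 0.01. Of these E2f4, a factor that holds cell cycle genes down in quiescent cells, was the 1 past the threshold, at 0.84 ± 0.39, though not without array 1. That is 5.56% of the list, where 4.82% of all genes were higher. Without array 3, 2 G1 genes were lower, as were 1382 of all 22222 genes. Without array 2 the G1 median was -0.20. Ccnd1, which encodes cyclin D1, averaged 0.63 ± 0.51 and Rbl2, a partner of E2F4, -0.49 ± 0.23. Turned, these 3 averaged 0.38, 0.34 and -0.13, and the G1 median was -0.13. No difference between these lists was tested, and all come from the same 6 libraries.

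**Figure D5:**
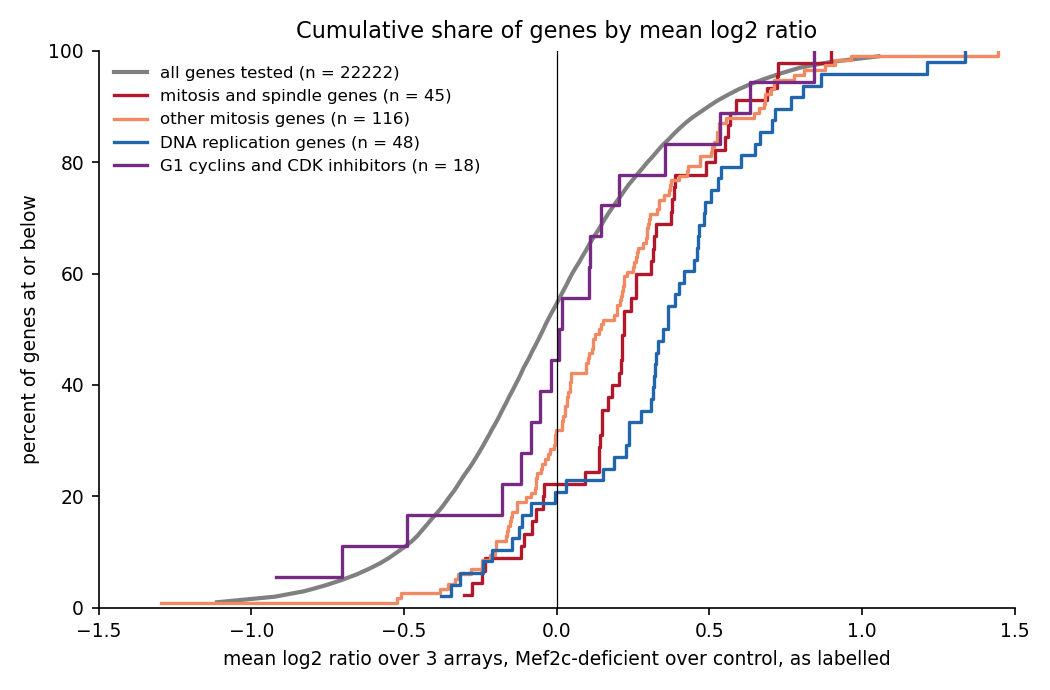
Percent of genes (y axis) at or below each mean log2 ratio (x axis) for the 45 mitosis and spindle genes, 116 other mitosis genes, 48 DNA replication genes, 18 G1 genes and all 22222 genes. The curves of the replication and mitosis genes lie to the right of that of all genes, with medians of 0.36, 0.22 and -0.04, and the G1 curve lies near it.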

How the data were processed

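Each of the 3 two-colour mouse arrays was deposited as scanner output with intensity values per spot and Agilent's log10 ratios, which the file headers credit to Agilent's Feature Extraction software (9.5.1.1). A table of the authors' deposited log2 ratios came with them. The submitters' processing notes name limma, and no source used here gives how those ratios were normalized. Each scanner file held a line ended by a lone carriage return, which was made uniform. Mean intensities were background-corrected (normexp, offset 50), loess-normalized within arrays with limma 3.58.1 in R 4.3.3 and turned to mutant (Cy3) over control (Cy5). Library signals were scaled by Aquantile. Flagged spots (252 to 331 per array) were left out only after normalization and scaling, and 0 spots were saturated. Well above background were 73.4% to 80.4% of probes per library, and the number of arrays limits the precision.

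Of 41174 probes, 32909 passed (at least 2 arrays with the spot well above background in 1 given channel), and the brightest probe stood for each of 22222 genes. Symbols came from RefSeq by accession for 22951 probes, by symbol for 6659 and by synonym for 3109, and 8455 kept the file's name. The ratio is the difference within a pair sharing an array; all arrays lie on 1 slide, so no slide term was possible. Tests were limma's lmFit and eBayes with Benjamini-Hochberg adjustment over all genes, tested on simulated data. Promoter sequences are RefSeq's (GRCm38.p6), searched in Python 3.11.15.

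The genes, roles and lists were chosen with earlier results of these data known. Named were the highest and lowest gene of each role, those with an unadjusted p under 0.05 and Mki67, and, of the other lists, those with the smallest p in each direction that ran alike on 3 arrays; the remaining mitosis genes are given by their means. 1 gene that the rule names is not reported here. Proteins of Aurka and Aurkb, planned, were not used here.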

Additional observations from a re-analysis of the deposited data

How the results depend on the processing

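Array 2 turned left 0 mitosis genes higher at an unadjusted p under 0.05, 2 other mitosis genes higher and 0 lower (median 0.062), 0 replication genes (median 0.14) and 0 G1 genes (median -0.13), and it reversed Cdk1 (-0.012), Birc5 (0.15), Ube2c (0.22), Kif4 (0.081), Nipbl (0.0020) and Orc2 (0.080). With array 2 turned, 1.51% of all genes were higher and 1.39% lower. Centring arrays on the median in place of loess moved the median of all genes from -0.04 to -0.18 and the unadjusted split from 1070 higher and 1182 lower to 552 and 2319. The mitosis genes then lay 0.31 above all genes (0.26 before), with 4 other mitosis genes higher (median 0.032), 6 replication genes higher (median 0.25) and 2 G1 genes lower (median -0.11). The scanner's processed signals gave 692 higher and 1547 lower, with 6 other mitosis genes and 4 replication genes higher and a G1 median of -0.066. Without the filter 1 G1 gene was lower, as were 1427 of 27670 genes. The mean of all probes gave 2 other mitosis genes lower, 2 G1 genes higher and Nipbl 0.22. In that setting 5.14% of all genes were higher and 1169 of 22222 lower. The ratio within an array pairs the libraries. Treating them as unpaired (no replicate block) gave 5 mitosis genes higher and 2 G1 genes higher, where 5.02% of all genes were higher.

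Alternatives chosen after seeing the data were these. Median centring with array 2 turned gave 0 mitosis genes higher, 1 other mitosis gene, 0 replication genes (median 0.20) and 0 G1 genes (median -0.10), with Birc5 0.24, Ube2c 0.31, Kif4 0.17, Mki67 0.0017 and Orc2 0.12. Processed signals with array 2 turned gave 0 mitosis genes higher (median 0.087), 0 other mitosis genes higher and 0 lower (median 0.032), 0 replication genes (median 0.12) and 0 G1 genes (median -0.15), with Cdk1 -0.018, Birc5 0.14, Ube2c 0.22, Spc25 -0.0025, Kif4 0.092, Nipbl 0.0044 and Orc2 0.069. Of all genes, 0.93% and 1.24% were higher in these settings, in that order. The probe nearest the 3′ end gave 7 mitosis genes higher (5.65% of all genes), a G1 median of 0.11, Cdk1 -0.035, Cenpo -0.085 and Wapl 0.33. The probe nearest the 5′ end gave 2 other mitosis genes lower (1030 of all 22222 genes), Bub3 -0.44 and Nipbl 0.82.

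Leaving out each array in turn gave 3 to 7 mitosis genes higher (median 0.14 to 0.29), 5 to 13 other mitosis genes higher and 1 to 2 lower (median 0.14 to 0.23), 3 to 7 replication genes higher (median 0.36 to 0.40), and 0 to 1 G1 genes higher and 0 to 2 lower (median -0.20 to 0.069). Of all genes, 2.85% to 6.09% were higher in those fits, and 664 to 1382 of 22222 were lower. Ratios ranged from -0.019 to 0.27 for Tpx2, -0.37 to 0.10 for Birc5, -0.074 to 0.62 for Spc25, -0.17 to 0.13 for Ube2c and -0.0057 to 0.36 for Bub3. No adjusted p fell under 0.05 in these fits by limma. Across all settings, 30 values of named genes changed sign. With 3 pairs on 1 slide and 1 dye orientation, effects of dye and Cre cannot be told apart from that of genotype.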
